A study of Ovis aries with 6 samples.

Results

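The imprinted DLK1-DIO3 region of sheep carries a long row of miRNA genes, and 86 of the 1253 miRNA entries measured in fetal rumen belonged to it. They were chosen by name, as every sheep entry named miR-134, miR-154, miR-299, miR-323, miR-329, miR-369, miR-370, miR-376, miR-377, miR-379, miR-380, miR-381, miR-382, miR-409, miR-410, miR-411, miR-412, miR-485, miR-487, miR-493, miR-494, miR-495, miR-496, miR-539, miR-541, miR-543, miR-544, miR-654, miR-655, miR-665, miR-668, miR-758, miR-1185, miR-1193 or miR-1197, with any letter or arm suffix. The miRNAs antisense to RTL1 and miR-3955 to miR-3959 of the same region were left out by this rule. The 86 members came from 45 hairpins, of which 41 had both arms listed, with 41 entries from the 5p arm, 42 from the 3p arm and 3 with no arm in their name. They made up 86 of the 152 entries that carried a sheep miRNA name, the other entries of the series being newly predicted.

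The data are small RNA libraries of the rumen of 3 male fetuses of undernourished Hu sheep ewes (UN, restricted feeding, labelled TR) and of 3 male fetuses of normally fed ewes (CON), with 1 library per fetus. All ewes were labelled as genotype WT and as being at day 115 of gestation, and the study then restricted the UN ewes from that age before it took the tissue. Although the series as a whole is titled and described for jejunum and ileum, each of its samples is labelled rumen, which was followed. The study describes the samples as rumen tissue, so that fewer cells of a type and less RNA per cell cannot be told apart in these values.

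In mammals the miRNAs of this region are expressed from the maternally inherited chromosome, on the same side as the long non-coding RNA MEG3, while the protein-coding genes DLK1 and RTL1 are expressed from the paternal one. The cluster is known for high levels in the embryo, the placenta and the brain, and mice that lack its miR-379 to miR-410 stretch adapt poorly to the change of fuel supply at birth. In sheep, the region holds the callipyge mutation, which enlarges the muscles of the hindquarters. An miRNA hairpin gives a 5p and a 3p strand, usually 1 of them kept in excess, and bases 2 to 8 of the kept strand, the seed, lead the pairing with mRNAs.

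The level of each miRNA is given in RPM, the reads of that miRNA per 1000000 reads assigned to all listed miRNAs of the library. Between 18731340 and 27059374 reads were assigned per UN library and between 18584326 and 35555822 per CON library, so that 1 read was worth 0.0281 to 0.0538 RPM. The smooth muscle miRNA miR-143 took 37.7% to 48.5% of the reads in UN and 29.5% to 50.03% in CON, and the reads left for all other miRNAs fall as that share rises. The epithelial miR-200a, miR-200b and miR-200c summed to 11663 to 14196 RPM in UN and 14495 to 18317 RPM in CON, without overlap. Of all tested miRNAs, 12.3% likewise lay lower in every UN library than in every CON library in RPM. The striated muscle miR-133 ranged over 160 to 280 RPM in UN and 232 to 268 RPM in CON. The part of miR-143, miR-200 and depth in the differences below was not tested. Markers of liver, endothelium and neurons were not analysed here, since no entry carried their names.

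The most abundant members are shown first, because the level of the whole cluster rests on them. Sequences are those of the study's supplementary sequence list, 5′ to 3′, with the seed in capitals.
miR-379-5p: uGGUAGACuauggaacguaggc
miR-411a-5p: aUAGUAGAccguauagcguacg
miR-493-3p: uGAAGGUCuacugugugccagg
miR-494-3p: uGAAACAUacacgggaaaccucu

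The following members had the lowest log2 fold changes of those tested, lay higher in every UN library, or were picked out by the study for a second assay. Their values are given with the comparison of the groups.
miR-134-5p: uGUGACUGguugaccagaggg
miR-134-3p: uCUGGGCUgccucgucaccaacc
miR-380-5p: aUGGUUGAccacagaacaugcg
miR-541-3p: uGGUGGGCacagaauccggccucu
miR-410-5p: cGCCACUUuggguacuugaggag

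The 86 members had 74 distinct seeds, and 10 seeds were shared by 22 members. Several of the shared seeds fell within a family or between neighbouring hairpins, as in the groups below, where miR-379-3p pairs with miR-411a-3p, miR-154a-3p with miR-154b-3p and miR-539-3p, and the miR-376 family splits over a pair of seeds.
miR-379-3p: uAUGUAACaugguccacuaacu
miR-411a-3p: uAUGUAACacgguccacuaac
miR-154a-3p: aAUCAUACacgguucaccuauu
miR-154b-3p: aAUCAUACaugguugaccuuuuu
miR-539-3p: aAUCAUACaaggacaauuucuuu
miR-376a-3p: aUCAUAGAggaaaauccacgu
miR-376b-3p: aUCAUAGAggaaaauccaugu
miR-376d: aUCAUAGAggaaaauccacau
miR-376c-3p: aACAUAGAggaaauuccacgu
miR-376e-3p: aACAUAGAggaaaauccacauu

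Another shared stretch, noticed in the sequences themselves, was ACACGG or ACAUGG, searched on the strand of the mature miRNA only. It stood in 13 of the 42 members from the 3p arm (31.0%), in 1 of the 40 distinct 5p sequences and in 2 of the 3 members without an arm name, against 7 of 944 other distinct sequences of the series (0.742%). It follows the seed in miR-379-3p, miR-411a-3p and miR-154a-3p above, partly overlapping it. The 5p arms of miR-376b and miR-376e were listed with the same sequence, gGUGGAUAuuccuucuauguuu, and with 426 and 418 reads, so the reads of these hairpins cannot be told apart and may be listed under both names. Members such as miR-329a-3p and miR-329b-3p, or miR-376a-3p, miR-376b-3p and miR-376d, differ by 1 or 2 bases, and how the authors shared reads between them is not given in the sources used here.

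The members ranged widely in level, down to a single read in all libraries. At the top, miR-379-5p averaged 10946 RPM over the 6 libraries and ranked 16th of all 1253 entries, and miR-411a-5p averaged 7341 RPM and ranked 18th. Together they held 69.2% of all member reads, and the 10 most abundant members held 89.9%. The median member had 6.70 RPM, against 0.308 RPM for the median of all entries. There were 18 members at 100 RPM or more, 22 between 10 and 100, 27 between 1 and 10 and 19 below 1 RPM, and 78 members had a read in every library.

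Apart from miR-379-5p and miR-411a-5p, the members among the 10 most abundant were miR-493-3p with a mean of 1588 RPM, miR-493-5p with 722 RPM, miR-370-3p with 717 RPM, miR-494-3p with 665.04 RPM, miR-409-3p with 543.9 RPM, miR-381-3p with 538 RPM, miR-411a-3p with 355 RPM and miR-495-3p with 349.8 RPM. They came from hairpins all along the row, from miR-493 at the DLK1 end to miR-409 near the DIO3 end. At the bottom, miR-758-5p had 1 read in all, miR-1193-3p had 2, miR-381-5p had 4, miR-1193-5p had 10 and miR-655-5p had 13. With counts of this size their level is known only as being near the limit of detection, which for 0 reads is 3 reads, or 0.0844 RPM in the deepest library and 0.161 RPM in the shallowest.

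Some neighbours on the chromosome differed widely in level. By the order of the hairpins in the RefSeq assembly ARS-UI_Ramb_v3.0, where the row lies on chromosome 18, miR-379 and miR-411a stand next to each other and hold 42.3% and 29.1% of the cluster's summed RPM, with 11182 and 7697 RPM over both arms. The next hairpin, miR-299, had 39.7 RPM. Farther on, miR-494 with 666 RPM is followed by miR-1193 with 0.0864 RPM, and then by miR-543 with 173 RPM and miR-495 with 352 RPM.

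**Figure D1:**
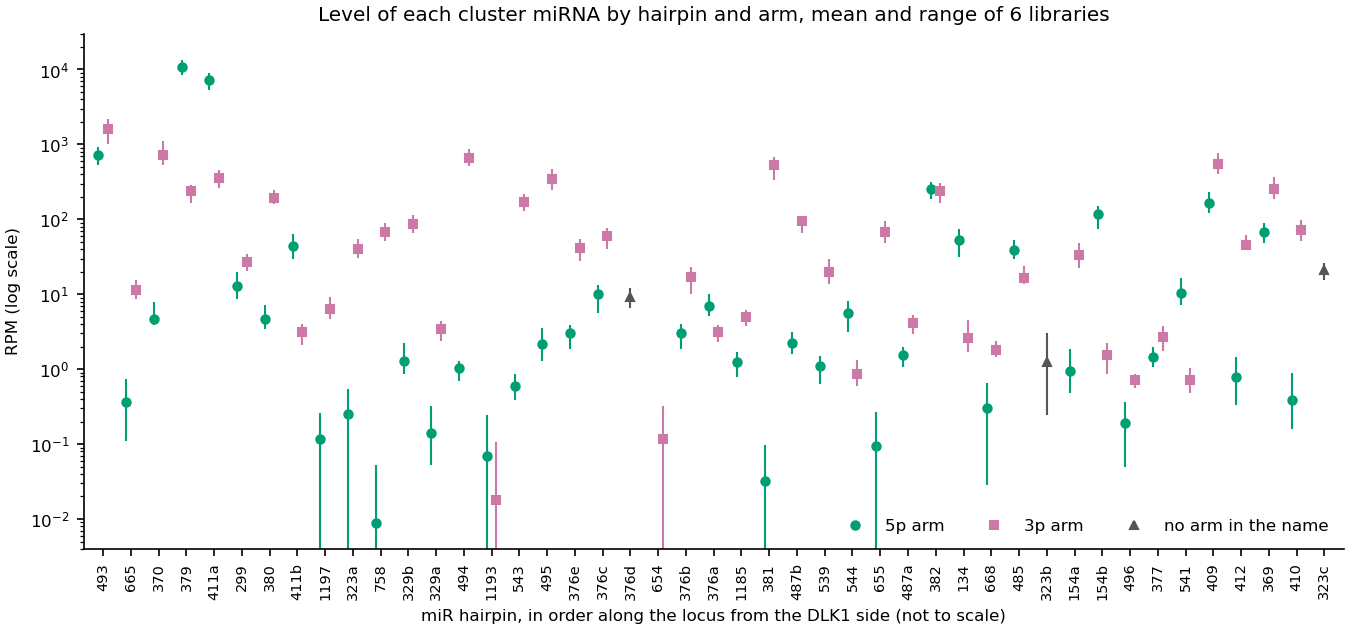
RPM of each of the 86 members on a log axis, by hairpin in its order along the locus from the DLK1 side (spacing not to scale), with circles for the 5p arm, squares for the 3p arm and triangles for names without an arm. Points are means and bars the range of the 6 libraries, and a bar that reaches the lower axis includes a library at 0. The 5p arms of miR-379 and miR-411a stand above all others, at 10946 and 7341 RPM, and some neighbouring hairpins differ by orders of magnitude.

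In each of the 6 libraries miR-379-5p was the highest member, followed by miR-411a-5p. For miR-379-5p the values were 12478, 9872 and 9043 RPM in UN and 13474, 12480 and 8331 RPM in CON. For miR-411a-5p they were 8642, 7139 and 6068 RPM in UN and 7993, 8935 and 5271 RPM in CON. The groups overlapped for both, with the lowest value of each in CON3. Among the 40 members with a mean of 10 RPM or more, the highest library exceeded the lowest by 1.52-fold for miR-412-3p to 2.35-fold for miR-134-5p, with a median of 1.87-fold, against a median of 1.67-fold for the 208 other entries at that level.

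The arm that was kept differed between hairpins. Of the 41 hairpins with both arms listed, 30 had more 3p and 11 more 5p reads. The larger arm exceeded the smaller by a median of 20.5-fold, by 10-fold or more in 25 hairpins, by 100-fold or more in 9, and by less than 3-fold in 7. It was the same arm in all 6 libraries for 39 hairpins, the exceptions being miR-382 and miR-1193, which had only 12 reads. Intervals of shares below are exact binomial 95% intervals and cover counting error only.

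At the 5p end of the range, 5p reads made up 97.9% of the reads of miR-379 (interval 97.89% to 97.93%), 95.4% of miR-411a, 93.5% of miR-411b, 95.5% of miR-134 and 98.7% of miR-154b. At the 3p end, they made up 0.650% of miR-370, 0.625% of miR-495, 0.155% of miR-494 and 0.00540% of miR-381, for which 4 reads came from the 5p arm and 74120 from the 3p arm (interval 0.00147% to 0.0138%). Both strands of other hairpins were well represented: 5p reads were 32.4% for miR-299, 31.6% for miR-493, 23.4% for miR-409 and 20.6% for miR-369.

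Close relatives did not always keep the same arm. For miR-154a, 2.58% of reads came from the 5p arm (interval 2.15% to 3.07%), against 98.7% for miR-154b (98.5% to 98.8%), its neighbour in the row. Within the miR-376 family, of which some are edited in their seeds in human and mouse brain, 5p reads were 68.7% for miR-376a, 15.3% for miR-376b, 13.9% for miR-376c and 6.71% for miR-376e. The 5p reads of miR-376b and miR-376e are open to double listing as above. The share of miR-376a rests on 442 reads of its 3p arm, which is 1 base from miR-376b-3p (2361 reads) and from miR-376d (1284 reads). It may thus depend on how the authors shared reads. Both miR-411 hairpins kept 5p, and both miR-329 hairpins kept 3p, with 5p reads at 4.07% for miR-329a and 1.49% for miR-329b.

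Because miR-379-5p and miR-411a-5p are so abundant, the summed reads of the 41 hairpins were mostly 5p although most hairpins kept 3p. The summed 5p share was 76.4%, 75.3% and 73.3% in UN and 77.3%, 72.4% and 75.7% in CON, each with an interval of at most 0.238 percentage points in width. The group means were 75.02% ± 1.56 in UN and 75.1% ± 2.52 in CON (SD, n = 3 each), so they differed by less than the spread between libraries. Without miR-379 and miR-411a the share was 20.5% ± 0.837 in UN and 20.6% ± 0.749 in CON (SD, n = 3 each).

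The 5p share within a hairpin does not depend on the library total. Among the 30 hairpins of the cluster with both arms above the low-count filter, its range over the 6 libraries had a median of 4.27 points and reached 16.8 points for miR-376a. Hairpins with a share near 0% or 100% can move by few points only, and the share of miR-412, for example, ran over 2.26%, 1.91% and 1.23% in UN and 1.41%, 2.33% and 0.810% in CON. In 26 of them the groups overlapped. In 1 the share was lower in every UN library than in every CON library, and in 3 it was higher. Over all 35 hairpins of the series with both arms tested, 2.86% were lower in this way and 8.57% were higher, and these were the same 4 hairpins.

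The strands of the 4 hairpins whose shares did not overlap are given here, with miR-411a-3p and miR-411a-5p above.
miR-487b-5p: aGUGGUUAucccuguccuguuc
miR-487b-3p: aAUCGUACagggucauccacuu
miR-369-5p: aGAUCGACcguguuauauucg
miR-369-3p: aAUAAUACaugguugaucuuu
miR-382-5p: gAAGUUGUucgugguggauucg
miR-382-3p: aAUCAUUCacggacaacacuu

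For miR-487b the 5p share was 1.92%, 1.94% and 1.92% in UN and 3.04%, 2.71% and 2.52% in CON, a difference of -0.83 points. The intervals of single libraries were wide at this depth, 1.38% to 2.61% for UN1 and 1.93% to 3.24% for CON3, so they overlapped. The 5p arm of this hairpin had 128 reads over the UN libraries and 187 over the CON libraries, against 6519 and 6600 reads of the 3p arm.

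For miR-369 the share was 22.8%, 21.1% and 22.0% in UN and 18.5%, 19.7% and 20.2% in CON, a difference of 2.48 points. For miR-411a, with far more reads, it was 95.5%, 95.9% and 95.9% in UN and 95.05%, 95.2% and 94.8% in CON, a difference of 0.74 points. For miR-382, the hairpin with the most even arms, it was 52.95%, 53.4% and 55.1% in UN and 48.3%, 50.04% and 52.91% in CON, a difference of 3.43 points, and UN1 lay above CON3 by less than either library's interval. The 3p arm of miR-382 was thus the larger only in CON1. For each of the 4 hairpins the two-sided exact permutation test over libraries gave p = 0.1, the smallest that 3 against 3 libraries allow, and 0.778 after Benjamini-Hochberg adjustment over the 35 hairpins.

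**Figure D2:**
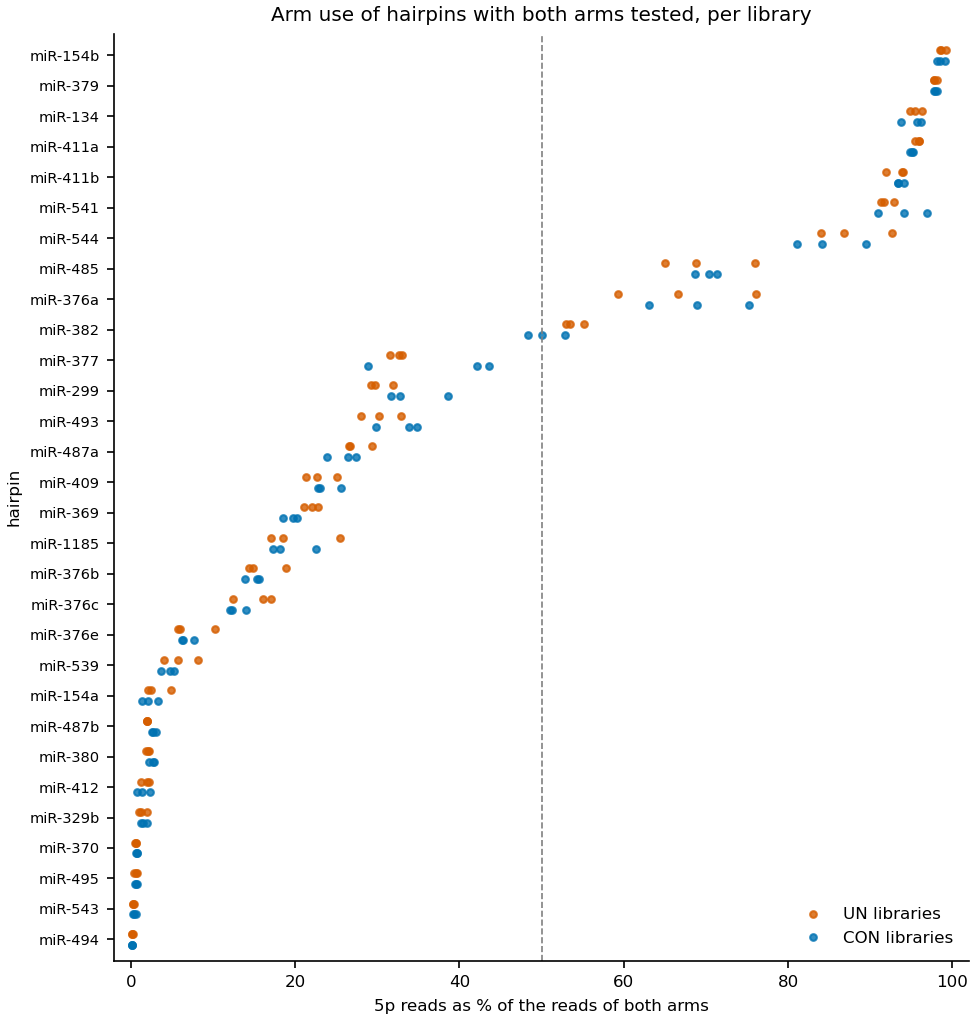
Share of 5p reads, in % of the reads of both arms, for the 30 hairpins with both arms tested, with 1 point per library, UN above CON in each row and a dashed line at 50%. Hairpins are ordered by their pooled share, and the UN and CON points overlap in 26 of 30, while miR-382 straddles the dashed line.

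The summed level of the cluster did not separate the groups. The 86 members took 29744, 24614 and 22542 RPM in UN and 29896, 32403 and 19473 RPM in CON. The means were 25633 ± 3708 RPM in UN and 27257 ± 6857 RPM in CON (SD, n = 3 each), or 2.56% and 2.73% of all reads, with a log2 ratio of -0.09. CON2 was the highest and CON3 the lowest of all 6, and both belonged to the same group. When the sum was taken over the reads other than those of miR-143, it was 4.77%, 4.38% and 4.38% in UN and 5.18%, 4.60% and 3.90% in CON, with a log2 ratio of -0.02. After scaling by TMM, a method that sets the libraries against a trimmed mean of all tested miRNAs, the ratio turned to 0.10.

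Single miRNAs were tested with limma on log2(RPM + 1), UN minus CON, over the 567 miRNAs that passed a filter on low counts, 73 of them members. The other 13 members, each with under 60 reads over the 6 libraries, were not tested. No member passed an adjusted p of 0.05, and over all miRNAs 0.00% passed. The lowest adjusted p of a member was 0.839 with limma, 0.816 with edgeR and 0.861 with DESeq2, where these tools passed 1 and 4 miRNAs outside the cluster. Since 1 library stands for 1 fetus, these p-values set the difference of the groups against the spread between fetuses. The diet was given to the ewes, and whether the fetuses of a group came from different ewes is not given in the sources used here.

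At an unadjusted p under 0.05, 1 of 73 members was lower in UN, against 4.41% of all tested miRNAs, and 0 members were higher, against 0.705%. All UN libraries lay below all CON libraries for 1 tested member, miR-134-5p, where this held for 12.3% of all tested miRNAs, and above it for 1, miR-541-3p, where it held for 1.06%. Whether these counts differ from those of all miRNAs was not tested, and the count of members lower in UN depended on CON3, as given with the libraries left out. Log2 fold changes of members ranged from -0.60 to 0.31 and are on the log2(RPM + 1) scale, which understates the change of the low members.

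The member below 0.05 was miR-134-5p, a miRNA known from rat neurons, where it represses the kinase Limk1 in dendritic spines. Its values were 46.1, 31.1 and 51.6 RPM in UN and 73.2, 66.6 and 54.1 RPM in CON. The highest UN library lay just below the lowest CON library. The log2 fold change was -0.60 ± 0.26 (SE), with an adjusted p of 0.839 by limma. Scaled by TMM it was -0.43, the groups overlapped and the unadjusted p no longer passed 0.05. Without UN1, UN2 or CON1 the unadjusted p did not pass either, at log2 fold changes of -0.66, -0.39 and -0.50.

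The other strand of the same hairpin, miR-134-3p, moved alike and had far fewer reads. It had 2.19, 1.71 and 1.96 RPM in UN and 3.29, 4.47 and 2.11 RPM in CON, with a log2 fold change of -0.50 ± 0.24 (SE) and an adjusted p of 0.839 by limma. UN1 lay above CON3, so the groups overlapped, but they did not after TMM scaling. The 5p share of miR-134 was 95.5%, 94.8% and 96.3% in UN and 95.7%, 93.7% and 96.2% in CON, and did not differ beyond the spread of libraries.

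Next in order, miR-380-5p had 4.00, 3.52 and 3.47 RPM in UN and 5.94, 7.10 and 3.68 RPM in CON (log2 fold change -0.46 ± 0.25 SE, limma adjusted p = 0.854). The UN libraries lay close together, and only CON3 fell among them. The log2 fold change was -0.36 for miR-1197-3p and -0.33 for miR-539-3p, each with an adjusted p of 0.854 by limma. All 5 stayed below 0 after TMM scaling and when any 1 library was left out.

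At the other end, miR-544-5p had 6.19, 8.06 and 4.62 RPM in UN and 5.73, 5.97 and 3.12 RPM in CON, a log2 fold change of 0.31 ± 0.28 (SE), with overlap. miR-541-3p had 0.801, 1.03 and 0.813 RPM in UN and 0.488, 0.538 and 0.703 RPM in CON, without overlap, and a log2 fold change of 0.25 ± 0.16 (SE). These are 15, 21 and 22 reads in UN and 12, 10 and 25 reads in CON. The adjusted p by limma was 0.854 for both.

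Of the remaining members at this end, miR-376c-5p had a log2 fold change of 0.24, miR-487b-3p of 0.20 and miR-493-3p of 0.16, each with an adjusted p of 0.919 or more by limma. These 3 turned below 0 when CON3 was left out, to between -0.10 and -0.01. miR-493-3p had 1943, 1522 and 1459 RPM in UN and 1378, 2201 and 1024 RPM in CON, so that the CON libraries enclosed all of UN. Without CON2, its log2 fold change was 0.45 and its unadjusted p passed 0.05.

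For the pair of members with most reads the log2 fold change was -0.11 for miR-379-5p (adjusted p = 0.978) and 0.00 for miR-411a-5p (adjusted p = 0.999, both by limma). That of miR-494-3p, with 553, 560 and 636 RPM in UN and 856, 875 and 509 RPM in CON, was -0.32 ± 0.24 (SE, adjusted p = 0.854 by limma), with CON3 again the lowest library. Another member, miR-410-5p, was chosen for a further assay by the study. It was below the filter, with 3, 5 and 6 reads in UN and 22, 6 and 17 reads in CON, or 0.160, 0.244 and 0.222 RPM in UN and 0.894, 0.323 and 0.478 RPM in CON. Its groups did not overlap in RPM, but UN3 and CON2 held 6 reads each, so that they are set apart only by their library totals, 27059374 in UN3 and 18584326 in CON2. Its 3p strand miR-410-3p had 68.6 ± 6.65 RPM in UN and 73.3 ± 22.8 RPM in CON (SD, n = 3 each).

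**Figure D3:**
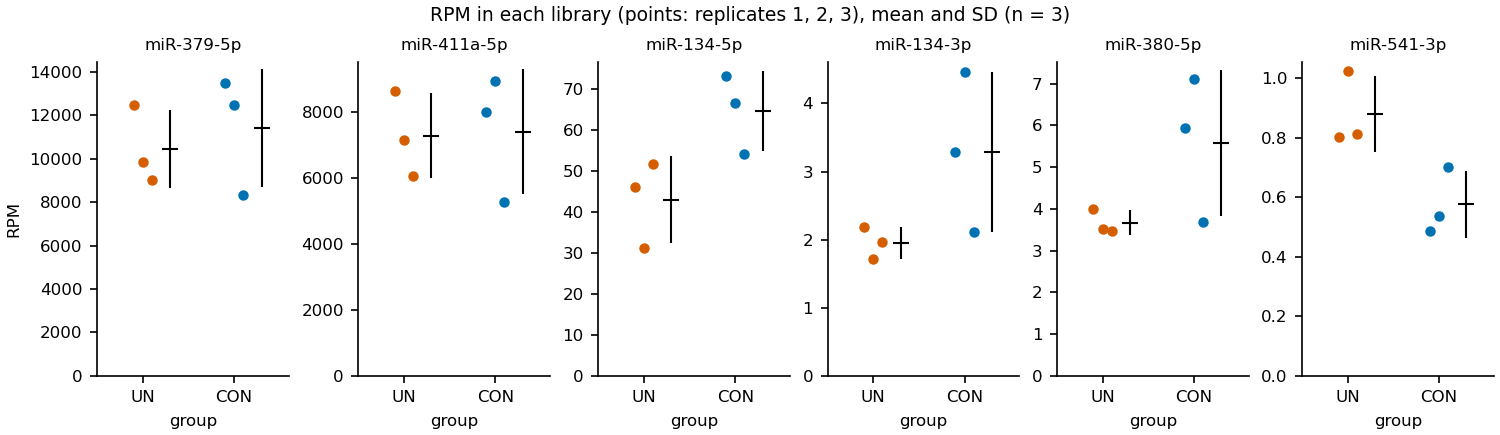
RPM of 6 members in each library, with UN left of CON, points for replicates 1 to 3 and the mean with its SD (n = 3) beside them; every axis starts at 0. miR-379-5p, miR-411a-5p, miR-134-3p and miR-380-5p overlap between the groups, whereas miR-134-5p is lower and miR-541-3p higher in all UN libraries; after TMM scaling miR-134-5p overlaps and miR-134-3p does not.

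Over the whole cluster the direction depended on the scaling. With RPM, 53 of 73 members (72.6%) had a log2 fold change below 0, against 73.5% of all tested miRNAs. With TMM-scaled RPM, 28 of 73 (38.4%) were below 0, against 48.5% of all. The median of the members was -0.08 with RPM, where that of all tested miRNAs was -0.12, and 0.05 with TMM, where that of all was 0.01. Relative to the median of all, miR-134-5p was at -0.48 and miR-493-3p at 0.28. The 40 members at 10 RPM or more had a median of -0.14 with RPM and 0.03 with TMM, where the 208 other miRNAs at that level had -0.09 with RPM and 0.08 with TMM.

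**Figure D4:**
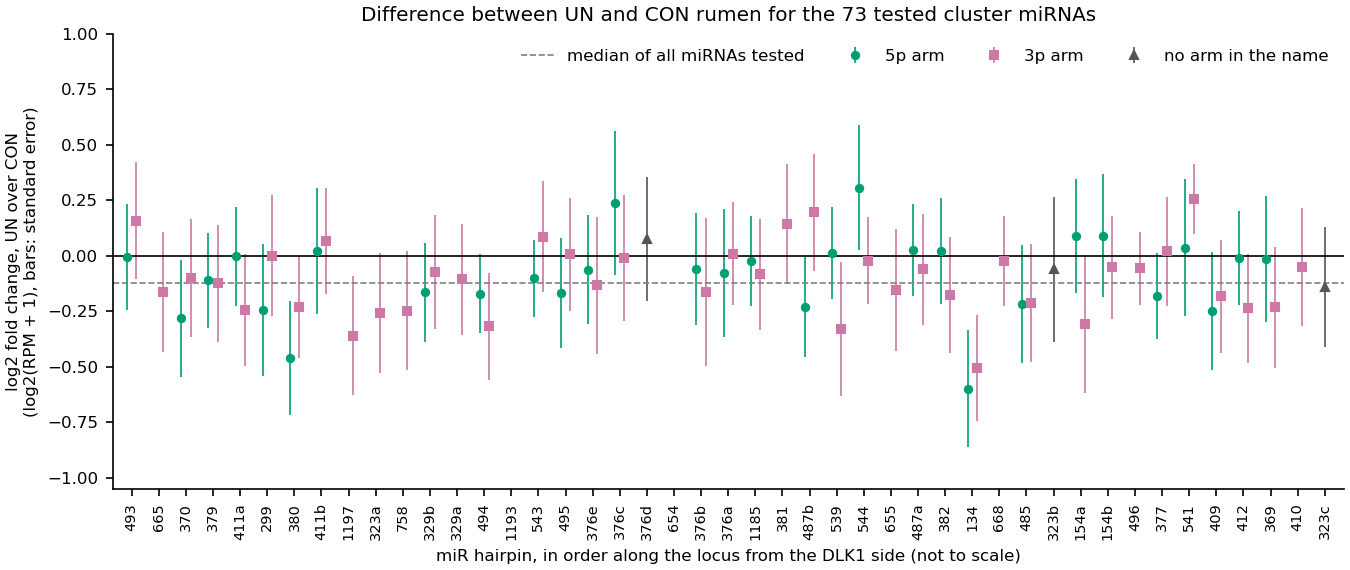
Log2 fold change of UN over CON on the log2(RPM + 1) scale for the 73 tested members, by hairpin in locus order, with circles for 5p, squares for 3p and triangles for names without an arm; bars are standard errors. The dashed line marks the median of all tested miRNAs, -0.12, which moved to 0.01 after TMM scaling. Most bars cross 0, no stretch of the row stands apart, and both arms of miR-134 lie lowest.

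The arms of a hairpin did not always lie on the same side. Of the 30 hairpins with both arms tested, 16 had both log2 fold changes on the same side of 0 and 14 on opposite sides, and the median gap between the arms was 0.18. For miR-134 the arms were at -0.60 and -0.50, for miR-379 at -0.11 and -0.12. The arms of miR-487b, at -0.23 for 5p and 0.20 for 3p, were those of the hairpin whose 5p share was lower in all UN libraries.

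Members did move together from library to library, within both groups. With RPM they followed all tested miRNAs, which include the members, most closely in CON2 and least closely in UN3 and CON3. Each tested member was set against its own mean over the 6 libraries. In UN1, UN2 and UN3, 47, 27 and 9 of 73 members (64.4%, 37.0% and 12.3%) were above it. In CON1, CON2 and CON3, 50, 68 and 3 (68.5%, 93.2% and 4.11%) were above it. The same shares over all 567 tested miRNAs were 53.3%, 30.9% and 31.7% in UN and 59.1%, 90.5% and 32.3% in CON. CON2, where nearly all members were high, had the smallest share of miR-143 reads (29.5%), and CON3, where nearly all were low, the largest (50.03%) and the most reads. After TMM scaling the numbers were 49, 48 and 21 in UN (67.1%, 65.8% and 28.8%) and 47, 51 and 6 in CON (64.4%, 69.9% and 8.22%). The shares of all miRNAs were then 57.3%, 53.3% and 45.0% in UN and 56.3%, 54.3% and 47.1% in CON. The low level of the members in CON3 and UN3 thus remained after scaling, while the high level in CON2 was close to that of UN1 and CON1.

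**Figure D5:**
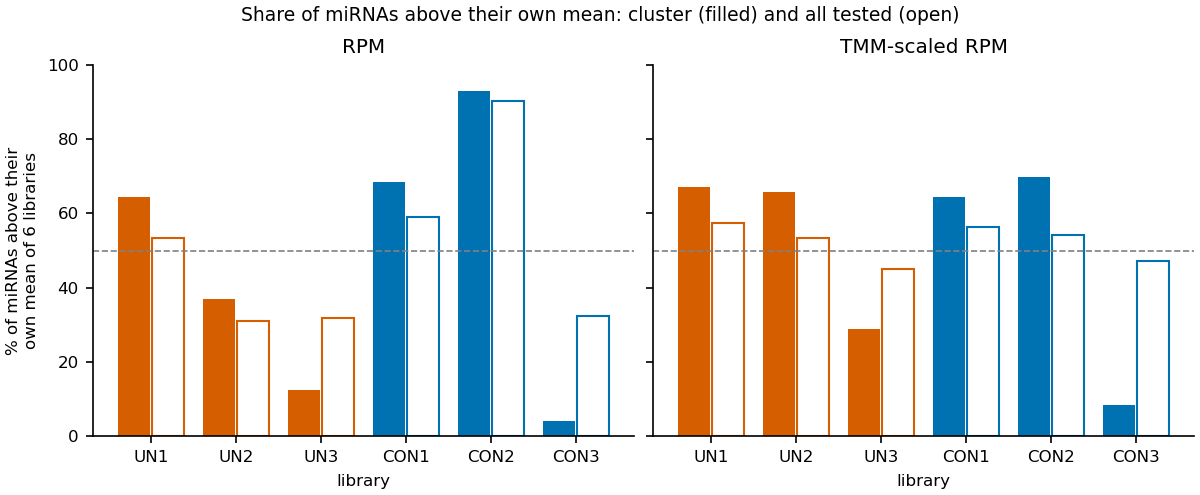
Share of miRNAs, in %, above their own mean of the 6 libraries, in each library, for the 73 tested members (filled bars) and all 567 tested miRNAs (open bars), with UN left of CON. With RPM (left panel) members range between 3 of 73 in CON3 and 68 of 73 in CON2; with TMM-scaled RPM (right panel) CON2 falls to 51 while CON3 stays low at 6.

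The comparison of the groups therefore rested on CON3 and CON2 more than on the other libraries. Without CON3, 70 of the 74 members then tested were below 0, with a median of -0.27, where that of all tested miRNAs was -0.23. In that fit 8 members were lower at an unadjusted p under 0.05, namely miR-134-5p, miR-134-3p, miR-154a-3p, miR-380-5p, miR-409-5p, miR-494-3p, miR-539-3p and miR-1197-3p. The same share over all miRNAs is not given for that fit, so this count cannot be read as particular to the cluster. Without CON2, 31 of 75 were below 0, with a median of 0.04, against -0.01 for all tested miRNAs. Without UN3, 37 of 74 were below 0, with a median of 0.00, against -0.10 for all. In none of these fits did a member pass an adjusted p of 0.05, the lowest being 0.358 without CON2 (limma).

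The rest of the locus had values of the same kind. The miRNAs antisense to RTL1, which in mouse direct the cutting of the RTL1 transcript, summed to 14854, 12634 and 11897 RPM in UN and 14429, 18872 and 10174 RPM in CON, and 4 of the 5 tested had a log2 fold change below 0 (range -0.29 to 0.00), or 2 of 5 with TMM. The sheep miR-3955 to miR-3959 summed to 1560, 1458 and 1243 RPM in UN and 1608, 1814 and 1017 RPM in CON, with 5 of 9 tested below 0 (range -0.29 to 0.10), or 3 of 9 with TMM. For both sets CON2 was the highest and CON3 the lowest library, as for the cluster, and none of their members had an unadjusted p under 0.05.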

How the data were processed

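Small RNA from 6 fetal rumens (3 UN, 3 CON) was analysed. The authors ligated adapters to small RNA, aligned cleaned reads with Bowtie2 and listed known and predicted miRNAs. The kit is named differently in the labels and in the paper. Versions of Bowtie2 and miRBase and the predicting program: not given in the sources used here. The deposited values are RPM by the authors, in a column named TPM: they sum to 1000000 per library and are not divided by length. All of them (100%) were whole reads within 0.001 reads, which gave the reads per miRNA.

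The log2(RPM + 1) values were compared with limma 3.58.1 (trend, two-sided) in R 4.3.3 without covariates over the 567 miRNAs that edgeR 4.0.16 filterByExpr kept (minimum count 10, total 15), adjusted by Benjamini-Hochberg over all of them. Alternatives were pseudocounts of 0.1 and 5, no filter, TMM scaling, edgeR, DESeq2 1.42.0, a replicate block and leaving out each library. Overlap of the groups under TMM and members at 10 RPM or more were added after seeing the data. The limma fit without a block was tested on simulated data, and the alternatives were not. Replicates were not duplicates: their reads differed with a chi-square of at least 532 per degree of freedom.

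Members and lists were chosen with earlier results of these data known. The text names the 10 members with most reads, those with an unadjusted p under 0.05, the 5 highest and 5 lowest log2 fold changes, both arms of the 10 hairpins with most reads, hairpins without a constant larger arm, identical sequences, the 5 members with fewest reads and miR-410-5p, which the study checked by RT-qPCR. Hairpins without overlap in arm share, members of families and neighbours along the locus were named after their values were seen, as were the shared motif, miR-410-3p and miR-412-3p. Sequences come from the study's supplementary list. RefSeq was used only for the order of hairpins. Markers were matched by name. The smooth muscle list matched 1 of 2 names, striated muscle 1 of 3, epithelium 3 of 5, mesenchyme 1 of 2 (miR-199a-3p, 11960 to 15475 RPM in UN and 13166 to 19963 RPM in CON) and blood cells 1 of 4 (miR-150, 3.36 to 4.36 RPM in UN and 3.77 to 6.02 RPM in CON).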

Additional observations from a re-analysis of the deposited data

How the results depend on the processing

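Members with under 60 reads were not tested, and standard errors of the tested ones lay between 0.16 and 0.33 on the log2 scale. Differences of that size, and also larger ones, could be missed with 3 libraries a group. The largest change of a member, -0.60 for miR-134-5p, did not pass an adjusted p of 0.05 by limma. Counts of members lower in UN at an unadjusted p under 0.05 were 1 with limma on log2(RPM + 1), 2 with a pseudocount of 5, 3 without the filter and 0 with TMM, edgeR or DESeq2, and 0 to 8 when 1 library was left out. Counts of members higher were 0, and 1 with DESeq2 (miR-487b-3p, log2 fold change 0.37), and 0 to 1 without 1 library. Over all 567 tested miRNAs, 25 were lower and 4 higher at that unadjusted p with limma on log2(RPM + 1). These counts were 12 and 16 with TMM, 11 and 19 with edgeR, and 8 and 21 with DESeq2. For the other settings they are not given. Of all miRNAs, 0 passed an adjusted p of 0.05 in either direction, against 1 higher with TMM, 1 higher with edgeR, and 2 higher and 2 lower with DESeq2, and 0 to 2 higher and 0 to 1 lower without 1 library. The median of the members was -0.08, with 0.05 under TMM and -0.27 to 0.04 without 1 library. That of all tested miRNAs was -0.12, with 0.01 under TMM and -0.23 to -0.01 without 1 library. With TMM, members above their own mean numbered 48 in UN2, 21 in UN3 and 6 in CON3. Of the 73 members, 2, miR-541-3p and miR-543-3p, were then higher in all UN libraries, as were 34 of all 567 tested miRNAs. In the other direction, 1 member, miR-134-3p, was lower in all UN libraries, as were 23 of the 567. The cause of these shifts was not tested. Of the 30 named members tested, all kept their side of an unadjusted p of 0.05 with the block, a pseudocount of 0.1, no filter or without UN3, 6 crossed it without CON3, 2 with DESeq2 and 1 in each of the other settings.

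With the replicate number as a block, 1 member was lower at an unadjusted p under 0.05, 0 were higher, the median stayed at -0.08, and no call changed. Deviations of libraries with the same number correlated at -0.07 to 0.19, and 3 of 6 libraries correlated best with their own number. No pairing by number was evident, although 3 libraries a group are too few to exclude one.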
